A study of Mus musculus with 4 samples.

Results

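Levels of 10 genes linked to recirculating and effector regulatory T (Treg) cells were described in mouse thymocytes: the chemokine receptors Ccr6 and Cxcr3, the adhesion molecules Cd44 and Itgb1, the scaffold Ahnak, the S100 genes S100a4, S100a6, S100a10 and S100a11, and Klrg1. The genes were a listed set, found by symbol in both expression matrices, and they are 10 of 33696 genes counted there. The series holds 2 droplet libraries of sorted thymocytes labelled CD4+CCR7+, with matching T cell receptor (TCR) libraries, and asks how cGAS, a cytosolic DNA sensor, affects transcription in these cells. The WT library came from Cd4Cre mice, and the Cgas KO library from Cd4Cre mice with floxed Cgas alleles (Cgasfl/fl). Both genotypes therefore carry Cre under Cd4 control, which is active from the double-positive thymocyte stage and so deletes in T lineage cells as a whole, not in Treg cells alone. The sources used here do not state how many mice, or of what age, each library pooled. With 1 library per genotype there was no replicate, so no test between genotypes was possible and intervals below are 95% and cover counting error only.

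Treg cells are CD4 T cells that carry the transcription factor Foxp3 and restrain other lymphocytes. The thymus makes them from maturing CD4 thymocytes, which lose Cd24a and gain Ccr7, the receptor that draws them into the medulla. The thymus also holds Treg cells that have come back from the periphery: such recirculating cells are known for low Cd24a and low Ccr7 together with Cd44, Ccr6 and other genes of antigen-experienced cells. The sort for CCR7 bears directly on how many of them could be caught here.

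The genes carry different tasks in a migrating cell. Ccr6 is the receptor for the chemokine Ccl20, and Cxcr3 is the receptor for interferon-induced chemokines. Cd44 binds hyaluronan and stays high after activation, and Itgb1 is the beta chain of the integrins that grip fibronectin, collagen and laminin. Ahnak is a very large scaffold protein that binds the complex of S100a10 with annexin A2 (Anxa2) under the plasma membrane. S100a4, S100a6 and S100a11 are small calcium-binding proteins, of which S100a4 binds nonmuscle myosin and S100a11 binds annexin A1. Klrg1 is an inhibitory receptor of terminally differentiated effector cells.

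The DNA just before the start of 4 of these genes is shown because the results turn on them. Ccr6 and Ahnak set Foxp3+ barcodes apart from Foxp3- barcodes of the Cd4 lineage, and S100a6 and S100a4 had much of their RNA in a few barcodes. Each window holds the 250 bases before an annotated start in RefSeq on GRCm38.p6. Of the 10 genes, 8 had such a window; S100a10 and Klrg1 had none. Ccr6 has windows at chr17:8235793-8236042 and chr17:8242276-8242525, Ahnak at chr19:8989034-8989283, S100a6 at chr3:90612644-90612893 and S100a4 at chr3:90603520-90603769, all on the + strand. UMIs were not placed on these coordinates, so which start was used is not known.
Ccr6, first start: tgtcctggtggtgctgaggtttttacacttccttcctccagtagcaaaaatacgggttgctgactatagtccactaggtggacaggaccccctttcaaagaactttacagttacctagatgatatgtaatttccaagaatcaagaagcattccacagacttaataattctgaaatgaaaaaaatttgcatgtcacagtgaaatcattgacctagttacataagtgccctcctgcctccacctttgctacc
Ccr6, second start: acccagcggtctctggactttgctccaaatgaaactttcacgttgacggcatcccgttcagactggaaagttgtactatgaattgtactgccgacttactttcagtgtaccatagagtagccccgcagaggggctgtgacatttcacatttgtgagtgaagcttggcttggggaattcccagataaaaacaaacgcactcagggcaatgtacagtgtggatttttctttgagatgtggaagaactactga
Ahnak: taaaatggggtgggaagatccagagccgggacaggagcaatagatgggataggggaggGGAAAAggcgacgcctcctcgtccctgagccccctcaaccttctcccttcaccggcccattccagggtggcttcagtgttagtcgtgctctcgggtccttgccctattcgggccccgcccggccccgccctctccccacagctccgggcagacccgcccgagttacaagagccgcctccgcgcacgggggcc
S100a6: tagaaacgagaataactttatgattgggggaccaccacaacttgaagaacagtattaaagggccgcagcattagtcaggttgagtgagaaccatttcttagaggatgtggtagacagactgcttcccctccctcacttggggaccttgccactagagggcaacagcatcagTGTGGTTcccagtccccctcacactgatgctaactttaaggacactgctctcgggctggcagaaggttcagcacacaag
S100a4: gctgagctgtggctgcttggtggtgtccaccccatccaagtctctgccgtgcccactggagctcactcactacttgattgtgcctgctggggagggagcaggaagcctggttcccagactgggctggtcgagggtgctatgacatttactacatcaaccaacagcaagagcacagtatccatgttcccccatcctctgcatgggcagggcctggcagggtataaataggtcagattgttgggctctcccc
Capitals mark exact matches, on either strand, to 1 of 6 motifs chosen after the data were seen: forkhead TGTTTAC, NFAT GGAAAA, AP-1 TGACTCA, ETS CCGGAAG, RUNX TGTGGTT and KLF CCCCACCC. The NFAT and ETS letters share GGAA. The Ahnak window held 1 NFAT match, a motif found in 20.4% of all 32851 windows of this length, and the S100a6 window held 1 RUNX match, found in 4.40% of them. Neither Ccr6 window nor the S100a4 window held any of the 6. The forkhead motif was in 3.17% of all windows, AP-1 in 4.46%, ETS in 6.91% and KLF in 9.05%. Of the windows not printed, those of Cd44 (1 NFAT match) and S100a11 (2 AP-1 matches) held a motif, and those of Itgb1 and Cxcr3 held none.

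Barcodes with at least 2000 UMIs, at least 500 genes and at most 10% mitochondrial UMIs were kept: 12929 in WT (75001049 UMIs, median 4943) and 14381 in Cgas KO (75605391 UMIs, median 4507). A barcode was called Foxp3+ with at least 1 Foxp3 UMI, which gave 514 WT barcodes (3.98%, exact binomial interval 3.65% to 4.33%) and 378 Cgas KO barcodes (2.63%, 2.37% to 2.90%). Levels are in CPM, a gene's UMIs scaled to a fixed total per class of barcodes. Treg markers were high in the class: Il2ra was 17.3-fold and 23.7-fold higher in Foxp3+ than in Foxp3- Cd4 lineage barcodes of WT and Cgas KO, and of the 17 genes of the Treg list 16 and 17 were at least 1.5-fold higher, Foxp3 itself being part of the rule. The Foxp3+ class was called on Foxp3 alone, with no rule on Cd4, Cd8a or Cd8b1. The Cd4 lineage (Cd4 detected, Cd8a and Cd8b1 not) held 5887 and 6638 Foxp3- barcodes. The Cd8 lineage (Cd8a or Cd8b1 detected, Cd4 not) held 1907 (14.7%) and 2020 (14.0%), although the label names CD4+ cells. Cgas itself had 337 UMIs (4.49 CPM) in the WT library and 221 UMIs (2.92 CPM) in the other, and since the sources used here do not say where those UMIs lie relative to the floxed part, they do not check the deletion. Kept barcode sequences shared by both libraries numbered 276, none of them Foxp3+. At least 2 productive beta chains, a sign of doublets, were present in 12.3% and 14.3% of Foxp3+ barcodes, and doublets were not removed.

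Ccr6 was the gene of the set that most separated Foxp3+ from Foxp3- Cd4 lineage barcodes. In WT it stood at 25.5 CPM (87 UMIs, exact Poisson interval 20.4 to 31.5) in Foxp3+ barcodes, 1.71 CPM (60 UMIs) in the Foxp3- Cd4 lineage and 0.819 CPM (8 UMIs) in the Cd8 lineage. In Cgas KO the same classes stood at 18.1 CPM (38 UMIs, 12.8 to 24.9), 1.003 CPM (36 UMIs) and 0.416 CPM (4 UMIs). The ratio of Foxp3+ to Foxp3- Cd4 lineage was 14.9 (10.6 to 21.1) in WT and 18.1 (11.2 to 29.4) in Cgas KO, and the intervals of the levels did not overlap in either library. Even so, few barcodes carried it: with every barcode thinned to 2000 UMIs, 13 of 514 Foxp3+ barcodes (2.53%) had a Ccr6 UMI in WT and 10 of 378 (2.65%) in Cgas KO. Before thinning these shares were 8.37% and 5.82%. After thinning, the shares were 0.272% and 0.226% in the Foxp3- Cd4 lineage and 0.210% and 0.0990% in the Cd8 lineage. Median depths of the Cd8 lineage were 4642 and 4171 UMIs, against 5085 and 4575 in Foxp3+ barcodes. Droplets far below the cell range, which hold mostly free RNA, had Ccr6 at 4.35 and 2.62 CPM, above both Foxp3- lineages and below the Foxp3+ barcodes.

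Cxcr3 was close to absent. It had 2 UMIs in WT Foxp3+ barcodes and 0 in Cgas KO, where 3 UMIs would have been 1.43 CPM. Over all kept barcodes it had 31 UMIs in 12 WT barcodes and 18 UMIs in 9 Cgas KO barcodes, so no difference in Treg cells was detectable at this depth.

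Cd44, by contrast, did not set Foxp3+ barcodes apart. In WT it was at 36.1 CPM (123 UMIs, 30.0 to 43.1) in Foxp3+ barcodes and 32.2 CPM (1129 UMIs, 30.3 to 34.1) in the Foxp3- Cd4 lineage, a ratio of 1.12 (0.924 to 1.35). In Cgas KO the levels were 22.0 CPM (46 UMIs, 16.1 to 29.3) and 23.5 CPM (844 UMIs, 22.0 to 25.2), a ratio of 0.934 (0.678 to 1.26). The Cd8 lineage was lower in both, at 19.96 and 17.5 CPM, or 0.620 (0.530 to 0.723) and 0.743 (0.626 to 0.878) of the Foxp3- Cd4 lineage. Free-RNA droplets had 31.4 and 31.1 CPM.

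Itgb1 was lower in Foxp3+ barcodes than in the other lineages. Its WT levels were 64.0 CPM (218 UMIs) in Foxp3+, 73.2 CPM (2568 UMIs) in Foxp3- Cd4 lineage and 83.1 CPM (812 UMIs) in Cd8 lineage barcodes. Its Cgas KO levels were 55.4 (116 UMIs), 74.9 (2689 UMIs) and 82.8 CPM (796 UMIs), in the same order. Against the Foxp3- Cd4 lineage the ratio was 0.874 in WT, with an interval that reached 1 (0.758 to 1.004), and 0.739 (0.608 to 0.890) in Cgas KO. Of the alpha chains that pair with it, 2 went the other way in both libraries. Itga4 was 1.64-fold (1.49 to 1.80) and 1.98-fold (1.76 to 2.22) higher in Foxp3+ barcodes, and Itga6 1.86-fold (1.61 to 2.15) and 1.61-fold (1.31 to 1.95). Itgb7, the other partner of Itga4, was 1.26-fold and 1.36-fold higher, and Itgb2, the beta chain of LFA-1, stood at 0.868 and 0.828 of the Foxp3- level. Of the 13 genes of this integrin list, 12 had at least 20 UMIs over both classes in WT, of which 5 were at least 1.5-fold higher and 0 lower. In Cgas KO 11 had, with 3 higher and 1 lower. Over all genes 9.56% were higher and 11.5% lower in WT, and 10.5% and 14.5% in Cgas KO.

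Ahnak was the other gene with several-fold more RNA in Foxp3+ barcodes. In WT, Foxp3+ barcodes had 22.0 CPM (75 UMIs, 17.3 to 27.6), against 6.70 CPM (235 UMIs) in the Foxp3- Cd4 lineage and 5.22 CPM (51 UMIs) in the Cd8 lineage. Cgas KO Foxp3+ barcodes had 17.7 CPM (37 UMIs, 12.4 to 24.3), against 5.46 CPM (196 UMIs) and 4.78 CPM (46 UMIs). The ratio to the Foxp3- Cd4 lineage was 3.29 (2.50 to 4.28) in WT and 3.23 (2.21 to 4.61) in Cgas KO. The share of thinned barcodes with an Ahnak UMI was 3.42-fold (1.96 to 5.70) and 3.75-fold (2.04 to 6.49) higher, so the difference was in the number of barcodes as well as in summed UMIs. Free-RNA droplets had 8.97 and 13.5 CPM, so the Cgas KO Foxp3+ level lay closer to theirs.

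S100a10, which joins Ahnak to annexin A2, was widespread and moderately higher in Foxp3+ barcodes. It stood at 311 CPM (1061 UMIs, 293 to 331) in WT Foxp3+ barcodes, 215 CPM (7542 UMIs) in the Foxp3- Cd4 lineage and 270 CPM (2636 UMIs) in the Cd8 lineage. In Cgas KO the levels were 328 CPM (687 UMIs, 304 to 353), 217 CPM (7804 UMIs) and 255 CPM (2447 UMIs). The ratios to the Foxp3- Cd4 lineage were 1.45 (1.36 to 1.54) and 1.51 (1.39 to 1.63). An S100a10 UMI was left by thinning in 40.5% of Foxp3+ and 33.2% of Foxp3- Cd4 lineage barcodes of WT (share ratio 1.22, 1.05 to 1.41), and in 37.3% and 32.5% of those of Cgas KO (1.15, 0.960 to 1.36). Anxa2 ran with it, 1.74-fold (1.45 to 2.08) and 1.93-fold (1.56 to 2.37) higher in Foxp3+ barcodes. Of the 16 genes of the S100 and annexin list, 13 could be compared in each library. Over all genes 9.56% were at least 1.5-fold higher and 11.5% lower in WT, and 10.5% and 14.5% in Cgas KO. Of the 13, Anxa2 was the sole gene that much higher in each, with 0 lower in WT and 2 in Cgas KO. Crip1, a small LIM protein, followed at 1.44-fold and 1.42-fold. In the same Foxp3+ barcodes, an S100a10 UMI was found in 14 of 20 with an Ahnak UMI in WT (70.0%) and in 9 of 16 in Cgas KO (56.3%). The product of the shares gives 8.09 and 5.97 such barcodes. In the Foxp3- Cd4 lineage it was found in 32 of 67 and 26 of 75, where the product gives 22.2 and 24.4. Whether the genes go together was not tested. From the other side, 6.73% and 6.38% of Foxp3+ barcodes with S100a10 had Ahnak.

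S100a11 marked the Cd8 lineage and not Foxp3+ barcodes. It had 46.7 CPM (159 UMIs) in WT Foxp3+, 49.4 CPM (1733 UMIs) in Foxp3- Cd4 lineage and 98.2 CPM (959 UMIs) in Cd8 lineage barcodes. The Cgas KO levels were 49.7 (104 UMIs), 52.1 (1869 UMIs) and 94.6 CPM (909 UMIs). The Cd8 lineage was 1.99-fold (1.84 to 2.15) and 1.82-fold (1.68 to 1.97) above the Foxp3- Cd4 lineage, while the Foxp3+ ratio to it was 0.945 (0.798 to 1.11) and 0.953 (0.775 to 1.16). Against the Cd8 lineage, Foxp3+ barcodes had 0.475 (0.399 to 0.563) and 0.525 (0.425 to 0.644) of its S100a11 level.

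S100a6, S100a4 and Klrg1 were rare in Foxp3+ barcodes. S100a6 had 14 UMIs in 6 WT barcodes, 8 of them in 1 barcode, and 10 UMIs in 8 Cgas KO barcodes, or 4.11 CPM (2.25 to 6.89) and 4.77 CPM (2.29 to 8.78). S100a4 had 3 UMIs and 1 UMI. Klrg1 had 0 UMIs in all 514 and 378 Foxp3+ barcodes, where 3 UMIs would have been 0.880 and 1.43 CPM and 3 barcodes 0.584% and 0.794%. Over all kept barcodes Klrg1 had 0 UMIs in WT and 1 in Cgas KO.

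**Figure D1:**
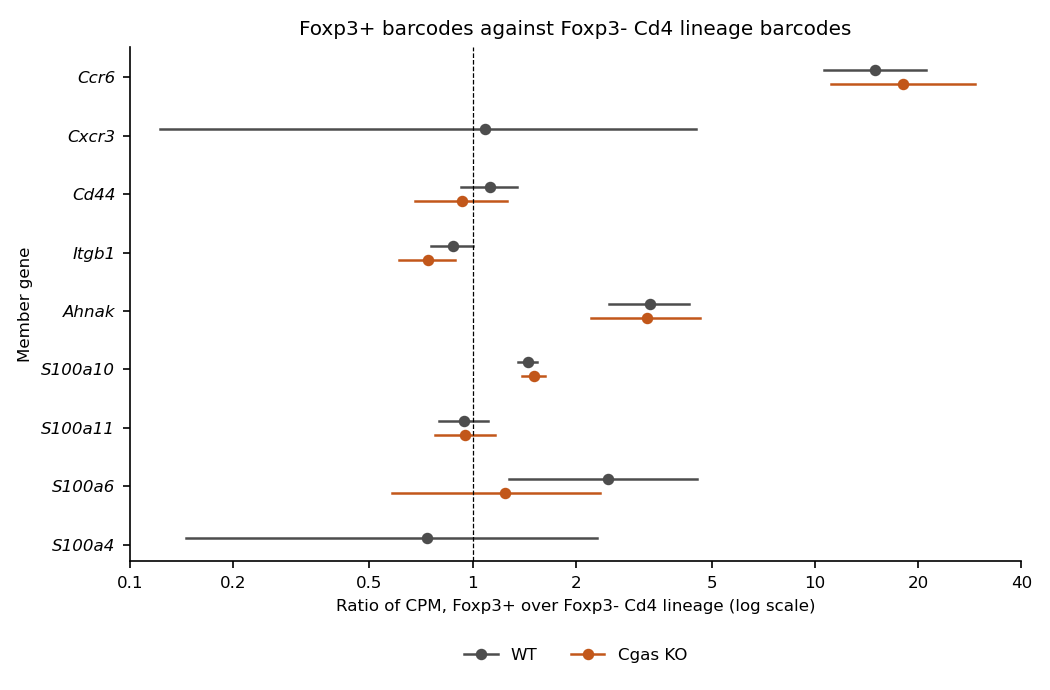
Ratio of CPM in Foxp3+ over Foxp3- Cd4 lineage barcodes (log axis) for each member with at least 20 UMIs over both classes, in the WT and Cgas KO libraries; points are ratios and lines their exact 95% counting intervals. Ccr6 (14.9 and 18.1) and Ahnak (3.29 and 3.23) lie farthest to the right, S100a10 (1.45 and 1.51) is narrowly above 1, and Itgb1 lies below 1.

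Counted together, 9 of the 10 genes had at least 20 UMIs over both classes in WT, of which 3 (Ccr6, Ahnak and S100a6) were at least 1.5-fold higher in Foxp3+ barcodes and 0 lower. Among all 13688 genes so measured, 9.56% were higher and 11.5% lower by that much. In Cgas KO, 7 were measured, of which 3 (Ccr6, Ahnak and S100a10) were higher and 0 lower, against 10.5% and 14.5% of 13642 genes. The median log2 ratio with 1 CPM added was 0.16 in WT and 0.25 in Cgas KO, against -0.05 and -0.06 over all genes. Neither sign was stable: the WT median was -0.37 without barcodes that had another cell type's marker, and the Cgas KO median -0.59 with states called on thinned barcodes. Among 25 further genes of effector Treg cells, 20 were measured in WT, with 10 higher and 2 lower, and 19 in Cgas KO, with 10 higher and 5 lower. Ccl5, a chemokine of antigen-experienced T cells, was 6.21-fold (4.88 to 7.88) and 2.82-fold (1.92 to 4.02) higher, and Rora, a nuclear receptor, 2.18-fold and 2.47-fold. Tnfrsf1b, which encodes TNF receptor 2, was 1.92-fold and 1.85-fold higher. Id2, a regulator of effector differentiation, stood at 0.565 and 0.504 of the Foxp3- level. The 12 genes of lymphoid homing and quiescence went both ways, with 3 higher and 2 lower in WT and 4 and 4 in Cgas KO. S1pr1, the receptor for thymic exit, was 1.88-fold and 1.82-fold higher, while Il7r, the interleukin-7 receptor, stood at 0.587 and 0.570 of the Foxp3- level.

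Against the Cd8 lineage, 7 of the genes were measured in WT, with 4 (Ccr6, Ahnak, Cd44 and S100a6) at least 1.5-fold higher in Foxp3+ barcodes and 1 (S100a11) lower, where 11% and 12.7% of all genes were. In Cgas KO 8 were measured, with 2 (Ccr6 and Ahnak) higher and 2 (S100a11 and S100a4) lower, against 9.83% and 13.9%. Between the Foxp3- lineages, 9 were measured in WT, with 2 (S100a11 and Cxcr3) higher in the Cd8 than in the Cd4 lineage and 4 (Cd44, Ccr6, S100a4 and S100a6) lower, where 7.52% and 10.7% of all genes were. In Cgas KO 8 were, with 2 (S100a11 and S100a4) higher and 1 (Ccr6) lower, against 6.7% and 8.53%. S100a11 thus stood on the same side in both libraries and S100a4 did not. Of the 33 S100a4 UMIs of the Cgas KO Cd8 lineage, 28 sat in 1 barcode. Cxcr3 in WT rested on 8 UMIs in 4 Cd8 lineage barcodes and 19 UMIs in 5 Foxp3- Cd4 lineage barcodes.

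Markers of other cell types were present in the Foxp3+ class. The dendritic and myeloid list of 12 genes summed to 293 CPM in Foxp3+ barcodes of WT and 159 CPM in those of Cgas KO, with 9 and 8 of 12 genes detected and Csf1r, Siglech and Xcr1 at 0 in both. Of the 403 Cd74 UMIs of the WT class, 262 came from 1 barcode, and 1 barcode held all 128 of its H2-Aa UMIs. The B cell list summed to 71.3 and 61.1 CPM (6 and 3 of 6 genes), the NK, innate-like and gamma-delta T cell list to 44.0 and 34.9 CPM (6 and 5 of 10 genes, Ncr1, Klrd1 and Zbtb16 at 0), and the epithelial, stromal and erythroid list to 11.7 and 18.6 CPM (5 and 3 of 9 genes). Leaving out every barcode with even 1 UMI of these lists left 164 of 514 WT and 138 of 378 Cgas KO Foxp3+ barcodes. In the Foxp3- Cd4 lineage 2226 of 5887 and 2555 of 6638 were left. Of the listed genes, Cst3 alone had a UMI in 223 and Ighm in 107 of the 514 WT Foxp3+ barcodes. The setting thus drops far more than clear cells of other types. In the barcodes left, Ahnak was 2.38-fold higher than in the Foxp3- Cd4 lineage in WT. In WT S100a6 then stood at 0.896 of the Foxp3- level, so its higher level was not found in the barcodes left. Whether this differed from the main ratio beyond counting error was not tested.

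Foxp3+ barcodes were next split by detection of Cd24a and Ccr7. Cd24a- Ccr7- barcodes, the pattern of recirculating cells, numbered 58 in WT and 50 in Cgas KO, Cd24a- Ccr7+ 393 and 278, Cd24a+ Ccr7+ 61 and 45, and Cd24a+ Ccr7- 2 and 5. Summed markers of other cell types were high in the WT Cd24a- Ccr7- class. The dendritic and myeloid list summed to 1811 CPM (509 UMIs) there and the B cell list to 214 CPM. These sums were 171 and 35.2 CPM in the same class of Cgas KO, and 156 and 52.3 CPM in WT Cd24a- Ccr7+ barcodes. Among all WT Foxp3+ barcodes, single barcodes held 262 Cd74, 128 H2-Aa and 69 H2-Ab1 UMIs. The 1811 CPM thus does not measure how many of the 58 barcodes carried these markers. Detection followed depth: Cd24a+ barcodes had medians of 8245 and 6534 UMIs against 4958 and 4492 in Cd24a- barcodes, and Ccr7- barcodes 4580.5 and 3677 against 5178 and 4787 in Ccr7+ barcodes. No Ccr7 UMI was found in 60 (11.7%) and 55 (14.6%) Foxp3+ barcodes, where 19.7 and 12.4 would have none if the gene were spread evenly by depth. How far the Ccr7- class holds cells without Ccr7 RNA, rather than cells in which it was not sampled, was not tested.

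**Figure D2:**
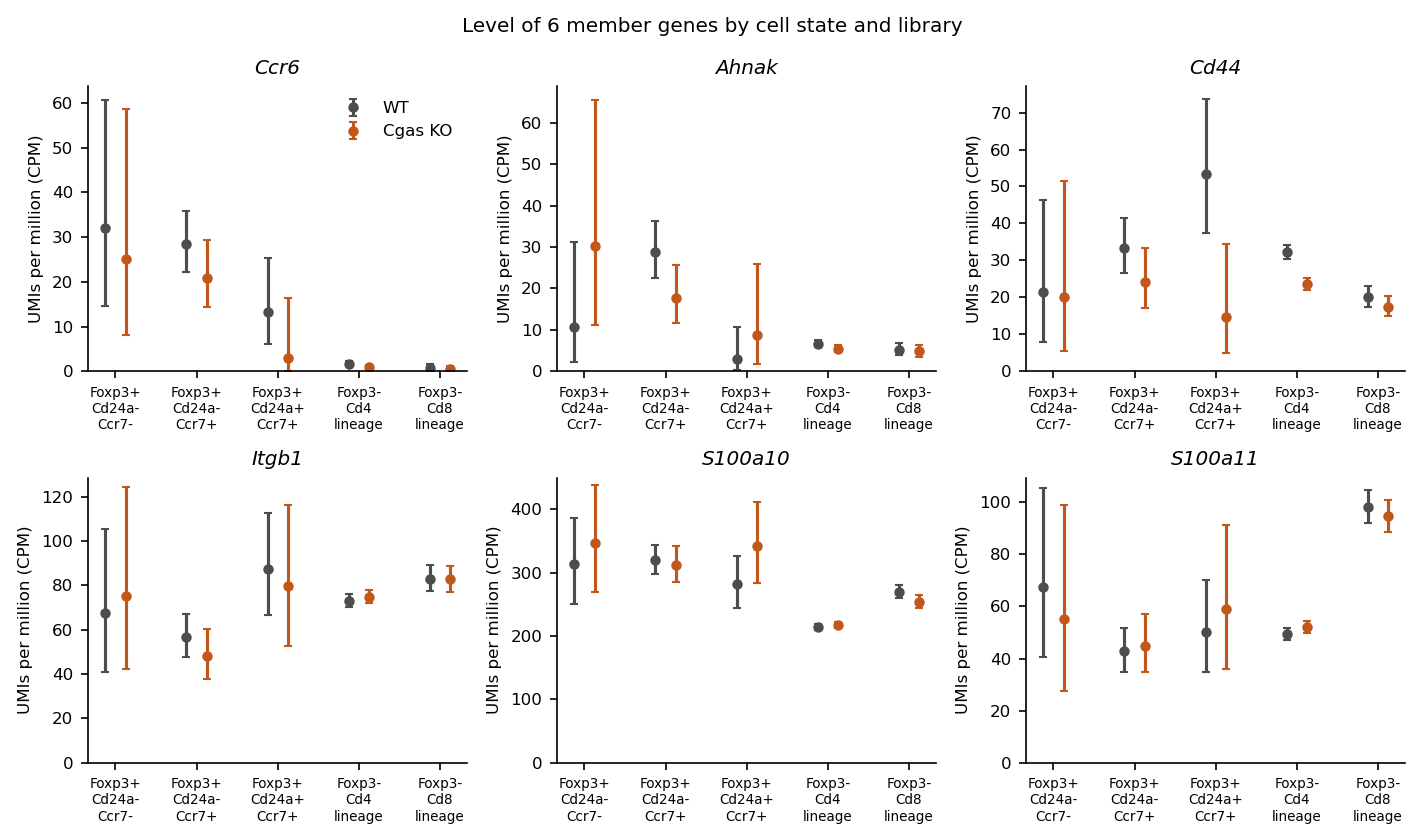
CPM of 6 members (linear axes) in 3 Foxp3+ states and the 2 Foxp3- lineages, WT in grey and Cgas KO in orange, with exact 95% Poisson intervals of summed UMIs. In Cd24a- Ccr7+ barcodes Ccr6 and Ahnak are at 28.4 and 28.8 CPM in WT and at 20.9 and 17.6 CPM in Cgas KO. In Cd24a- Ccr7- barcodes they are at 32.0 and 10.7 CPM in WT and at 25.1 and 30.2 CPM in Cgas KO, on 3 to 9 UMIs. S100a10 is at 283 CPM or above in each Foxp3+ state, and S100a11 is highest in the Cd8 lineage.

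Ccr6 and Ahnak had higher summed levels in Cd24a- than in Cd24a+ Foxp3+ barcodes. Ccr6 had 28.8 CPM (78 UMIs) in Cd24a- and 12.9 CPM (9 UMIs) in Cd24a+ barcodes of WT, a ratio of 2.23 (1.12 to 5.06), and 21.4 CPM (37 UMIs) and 2.77 CPM (1 UMI) in Cgas KO, a ratio of 7.72 (1.30 to 313). Ahnak had 26.9 CPM (73 UMIs) and 2.87 CPM (2 UMIs) in WT, a ratio of 9.39 (2.51 to 79.0). In Cgas KO it had 19.0 CPM (33 UMIs) and 11.1 CPM (4 UMIs), where the interval of the ratio of 1.72 (0.612 to 6.68) included 1. At equal depth the shares of barcodes with a UMI rested on few barcodes and did not all follow. For Ccr6 they were 11 of 451 Cd24a- and 2 of 63 Cd24a+ barcodes in WT (2.44% and 3.17%, the opposite direction), and 10 of 328 and 0 of 50 in Cgas KO. For Ahnak they were 20 of 451 and 0 of 63 in WT, and 14 of 328 and 2 of 50 in Cgas KO. S100a6 had 14 UMIs in Cd24a- and 0 in Cd24a+ barcodes of WT, and 9 UMIs and 1 UMI in Cgas KO. Itgb1 ran the other way, at 57.9 against 87.45 CPM in WT (0.662, 0.490 to 0.905) and 51.4 against 74.7 CPM in Cgas KO (0.687, 0.442 to 1.10). Cd44 differed in direction between libraries: it was lower in Cd24a- than Cd24a+ barcodes of WT (0.622, 0.417 to 0.944) and 1.71-fold (0.676 to 5.54) in Cgas KO on 5 Cd24a+ UMIs, and that difference between libraries was not tested. Of the 6 genes measured in each library, 2 were at least 1.5-fold higher and 2 lower in Cd24a- barcodes of WT, where 9.75% and 10.7% of all genes were. In Cgas KO 3 were higher and 0 lower, against 13.6% and 11.4%. The WT medians with other settings ran from -0.38 to 2.45, so the set as a whole had no settled direction.

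By Ccr7 alone, the set had no common direction in WT and lay mostly above 1 in Cgas KO. The median log2 ratio of Ccr7- over Ccr7+ Foxp3+ barcodes was 0.04 in WT and 0.36 in Cgas KO, against -0.02 and 0.02 over all genes. In Cgas KO 5 of 6 measured genes had a ratio above 1, and the median was -0.17 without barcodes that had another cell type's marker. Of 6 genes measured between Ccr7- and Ccr7+ Foxp3+ barcodes of WT, 1 (S100a11) was at least 1.5-fold higher in Ccr7- and 2 (Cd44 and Ahnak) lower, where 11.1% and 17.4% of all genes were. Of 6 in Cgas KO, 1 (Ahnak) was higher and 0 lower, against 14.3% and 15.9%. S100a11 had 69.4 CPM (21 UMIs) in Ccr7- and 44.4 CPM (138 UMIs) in Ccr7+ barcodes of WT, a ratio of 1.56 (0.937 to 2.48), and 67.6 (15 UMIs) and 47.5 CPM (89 UMIs) in Cgas KO, a ratio of 1.42 (0.764 to 2.47). S100a10 had a ratio of 0.974 (0.778 to 1.21) in WT and 1.30 (1.04 to 1.63) in Cgas KO, the single interval of these that excluded 1. Of the 92 S100a10 UMIs in Cgas KO Ccr7- barcodes, however, 21 sat in 1 barcode. After thinning, 22 of 55 Ccr7- and 119 of 323 Ccr7+ barcodes of Cgas KO had an S100a10 UMI, with overlapping intervals of the shares. Ahnak had 3 UMIs in WT Ccr7- barcodes and 7 in Cgas KO, for ratios of 0.427 (0.0861 to 1.30) and 1.97 (0.730 to 4.58). All 9 Ccr6 UMIs of the 58 Cd24a- Ccr7- barcodes of WT sat in 1 barcode, and 5 UMIs in 4 barcodes were found in Cgas KO. Cd44, a defining gene of returning cells, had 6 UMIs in these 58 barcodes and 4 in the 50 of Cgas KO, or 21.4 and 20.1 CPM, and S100a6, S100a4 and Klrg1 had 0 in both.

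Few Foxp3+ barcodes carried several of the genes at once. After thinning to 2000 UMIs, 238 of 514 WT barcodes (46.3%) had none of the 10 and 209 had 1. At least 3 were present in 13 (2.53%, 1.35% to 4.29%) in WT and in 8 of 378 (2.12%, 0.918% to 4.13%) in Cgas KO. The Foxp3- Cd4 lineage had 67 of 5887 (1.14%, 0.883% to 1.44%) and 55 of 6638 (0.829%, 0.625% to 1.08%). The Cd8 lineage had 41 of 1907 (2.15%, 1.55% to 2.91%) and 31 of 2020 (1.53%, 1.05% to 2.17%). Its intervals overlapped those of the Foxp3+ barcodes in both libraries. Without thinning, 106 WT Foxp3+ barcodes (20.6%) had at least 3 and the most was 6. Among the Cd24a- Ccr7- barcodes 2 of 58 (3.45%, 0.420% to 11.9%) and 1 of 50 (upper bound 10.6%) had at least 3, and a difference from other Foxp3+ barcodes was not detectable at this number.

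**Figure D3:**
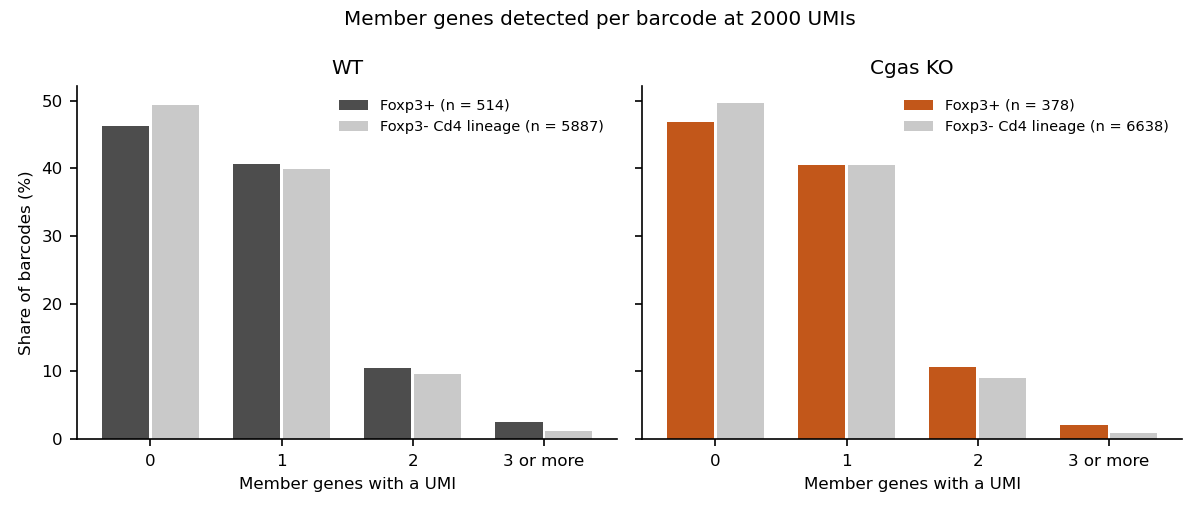
Share of barcodes (%, bars from 0) by the number of the 10 genes with a UMI after thinning each barcode to 2000 UMIs, in Foxp3+ (coloured) and Foxp3- Cd4 lineage barcodes (light grey) of each library. The classes run close together, and 3 or more genes were present in 2.53% and 2.12% of Foxp3+ against 1.14% and 0.829% of Foxp3- Cd4 lineage barcodes.

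Foxp3+ barcodes with at least 2 of the genes (67 in WT, 48 in Cgas KO) differed from those with none (238 and 177) in other genes of effector and resting cells, given here as a description chosen after the values were seen. Ccl5 was at 194 CPM (127 to 284) against 25.2 CPM (13.03 to 44.0) in WT and at 104 CPM (50.0 to 192) against 0 UMIs in Cgas KO, all from thinned counts. Klf2, a factor of quiescent cells, was at 1075 CPM (906 to 1265) against 1807 CPM (1688 to 1932) in WT and 1073 CPM (876 to 1301) against 1449 CPM (1326 to 1580) in Cgas KO. Ikzf2, which encodes Helios, was at 1015 CPM (852 to 1201) against 702 CPM (628 to 781) and at 1479 CPM (1246 to 1743) against 949 CPM (850 to 1056). Rora had overlapping intervals in WT (82.1 against 50.4 CPM) and not in Cgas KO (188 CPM, 111 to 296, against 53.7 CPM, 32.3 to 83.8). Id2 was at 164 CPM against 77.7 CPM in WT and at 20.8 against 33.9 CPM in Cgas KO, the opposite direction on 2 UMIs. Median depths before thinning were 5616 against 5043 UMIs and 5152.5 against 4493 UMIs.

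Between genotypes, the Foxp3+ levels were mostly within counting error of each other. Cd44 had 36.1 CPM in the WT library against 22.0 CPM in Cgas KO, a ratio of 0.609 (0.424 to 0.860). The ratio was 0.711 (0.472 to 1.05) for Ccr6, 0.803 (0.526 to 1.21) for Ahnak and 0.866 (0.685 to 1.09) for Itgb1. S100a10 (1.05, 0.956 to 1.16), S100a11 (1.06, 0.823 to 1.37) and S100a6 (1.16, 0.462 to 2.81) stood near or above 1. Of 7 genes measured, 0 were at least 1.5-fold higher and 1, Cd44, lower in Cgas KO, where 4.54% and 5.51% of all 10357 genes were. The median log2 ratio of the 7 was -0.20, against 0.00 over all genes. By the share of thinned barcodes with a UMI, Cd44 was at 4.67% and 4.497%, a ratio of 0.963 (0.486 to 1.87). That interval, on 24 and 17 barcodes, holds both 1 and 0.609. The shares therefore cannot tell whether fewer barcodes carried Cd44 at equal depth. Before thinning the shares were 16.1% and 11.1%. Without barcodes that had a UMI of another cell type's marker, Cd44 was at 0.923 of the WT level, Ccr6 at 2.54 and Ahnak at 1.85. These values came from the 164 of 514 WT and 138 of 378 Cgas KO Foxp3+ barcodes left by that setting and are given without intervals. Whether they differed from the main ratios beyond counting error was not tested.

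Other genes of effector Treg cells also differed between the libraries in Foxp3+ barcodes, in both directions. Of 15 measured, 1 was at least 1.5-fold higher and 4 lower in Cgas KO, against 4.54% and 5.51% of all genes. The dendritic and myeloid list was also lower in this class, at 159 against 293 CPM with 3 of 5 measured genes lower. That gap lay in Cd24a- Ccr7- barcodes, at 171 CPM in Cgas KO against 1811 CPM in WT. In Cd24a- Ccr7+ barcodes the sums were 146 against 156 CPM, and in Cd24a+ Ccr7+ barcodes 201 against 160 CPM. In WT Foxp3+ barcodes, 1 barcode held 262 of 403 Cd74 UMIs and 1 held all 128 H2-Aa UMIs. The part of this list in the other values was not tested. Ccl5 had 33.4 CPM in the WT library against 17.2 CPM in Cgas KO, a ratio of 0.514 (0.343 to 0.753), and Id2 at 82.2 and 51.1 CPM, a ratio of 0.622 (0.493 to 0.780). Batf, a transcription factor of effector Treg cells in tissues, was at 34.9 and 53.5 CPM, a ratio of 1.53 (1.17 to 1.999). Of the S100 and annexin list 0 of 12 were higher and 1 lower, with Anxa2 at 1.15 (0.883 to 1.49), and of the integrin list 0 of 10 passed 1.5-fold in either direction.

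Cd44 was lower in Cgas KO in both Foxp3+ states with at least 20 UMIs and in both Foxp3- lineages, with intervals that excluded 1 in part of them. In Cd24a- Ccr7+ barcodes it was 33.3 CPM (81 UMIs) in WT and 24.1 CPM (37 UMIs) in Cgas KO, a ratio of 0.723 (0.477 to 1.08). In Cd24a+ Ccr7+ barcodes it was 53.3 CPM (36 UMIs) and 14.8 CPM (5 UMIs), a ratio of 0.277 (0.0850 to 0.709), with 18 of the 36 WT UMIs in 5 barcodes. In the Foxp3- Cd4 lineage the ratio was 0.731 (0.668 to 0.800), in the Cd8 lineage 0.876 (0.708 to 1.08) and over all kept barcodes 0.769 (0.723 to 0.819). Over all kept barcodes 9 of the genes were measured, with 0 at least 1.5-fold higher and 2 (Ccr6 and Cxcr3) lower, against 3.55% and 3.94% of all genes. In the Foxp3- Cd4 lineage the share of thinned barcodes differed too, at 5.95% against 4.08% (0.687, 0.584 to 0.807). Whether these differences belong to the genotype or to the library cannot be told apart.

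Ahnak in Cd24a- Ccr7+ Foxp3+ barcodes was at 28.8 CPM (70 UMIs) in WT and 17.6 CPM (27 UMIs) in Cgas KO, a ratio of 0.611 (0.377 to 0.965). In that state 7 genes were measured, with 0 at least 1.5-fold higher and 1 (Ahnak) lower, against 4.85% and 6.16% of all genes. In Cd24a+ Ccr7+ barcodes 4 were measured, with 0 higher and 1 (Cd44) lower, against 8.65% and 13.4%. In Cd24a- Ccr7- barcodes 3 were measured and none passed 1.5-fold, against 15.2% and 11.1%.

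In the Foxp3- Cd4 lineage, Itgb1 (1.02, 0.970 to 1.08), S100a10 (1.01, 0.980 to 1.04) and S100a11 (1.05, 0.988 to 1.13) had narrow intervals that included 1. Ahnak was at 0.816 (0.671 to 0.990) and Ccr6 at 0.587 (0.377 to 0.902) of the WT level, the latter turning to 1.75 without barcodes that had another cell type's marker. Cxcr3 had 19 UMIs in 5 WT barcodes and 5 UMIs in 1 Cgas KO barcode. S100a4 had 42 UMIs in 10 WT and 16 UMIs in 8 Cgas KO barcodes, a ratio of 0.373 (0.196 to 0.677), and S100a6 had 58 UMIs in 30 and 138 UMIs in 29 barcodes, a ratio of 2.33 (1.70 to 3.22). Of 9 genes measured, 1 was at least 1.5-fold higher and 3 lower in Cgas KO, where 3.31% and 3.7% of all genes were. In the Cd8 lineage 7 were measured, with 2 higher (S100a4 and S100a6) and 0 lower, against 3.96% and 3.6%. There S100a4 had 5 UMIs in WT and 33 in Cgas KO (6.71, 2.60 to 22.0), of which 28 sat in 1 barcode, and S100a6 had 8 and 35 UMIs (4.45, 2.03 to 11.1), of which 22 sat in 1 barcode.

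**Figure D4:**
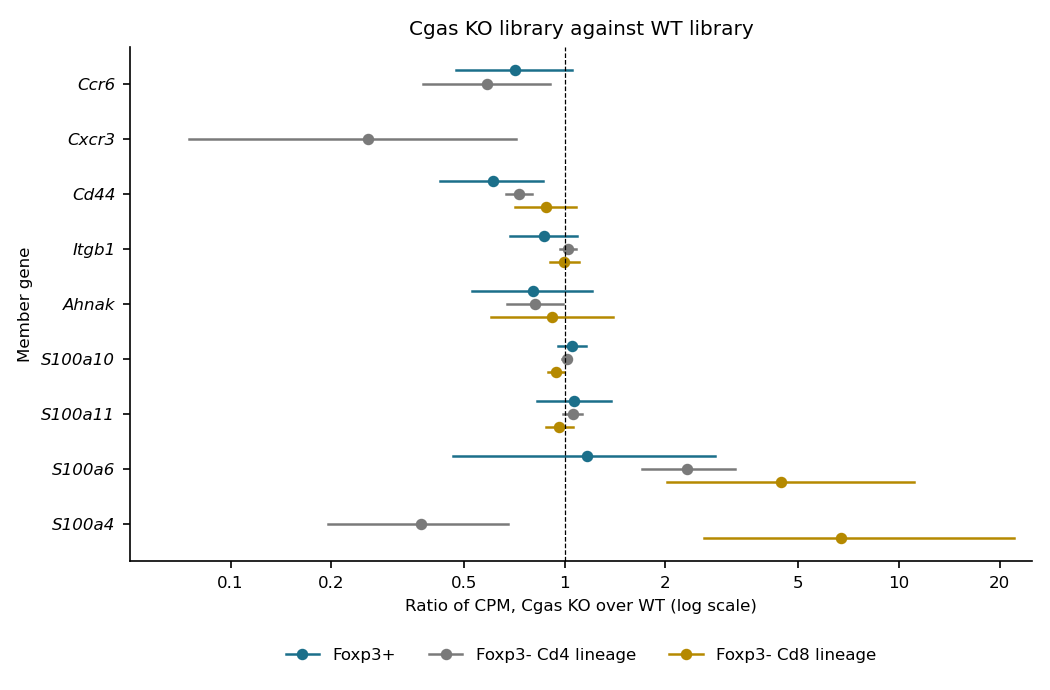
Ratio of CPM in Cgas KO over WT (log axis) in Foxp3+, Foxp3- Cd4 lineage and Foxp3- Cd8 lineage barcodes, for each member with at least 20 UMIs over both libraries in that class; points are ratios and lines exact 95% counting intervals. Cd44 lies left of 1 in all 3 classes (0.609, 0.731 and 0.876), S100a10 and S100a11 lie near 1, and S100a6 and S100a4 spread widest.

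The S100a6 and S100a4 ratios rested on a handful of barcodes, and the TCR libraries describe some of these. TRAV11 joined to TRAJ18 is the alpha chain of invariant NKT cells, innate-like T cells that depend on the transcription factor Zbtb16. Such a chain was found on 7 WT and 11 Cgas KO kept barcodes, with medians of 15348 and 13236 UMIs. They held 84 of all 206 S100a6 UMIs in WT (40.8%) and 135 of 261 in Cgas KO (51.7%), and 3 of 62 (4.84%) and 44 of 76 (57.9%) S100a4 UMIs. Their S100a6 level was 874 CPM (697 to 1082) in WT and 823 CPM (690 to 974) in Cgas KO. Their S100a10 level was 916 and 1103 CPM and their S100a11 level 437 and 853 CPM, while Ccr6 and Foxp3 had 0 UMIs in them in both libraries. By Cd4 and Cd8 detection, 1 of the 7 fell in the Foxp3- Cd4 lineage and 0 in the Cd8 lineage of WT, and 5 and 2 of the 11 did in Cgas KO.

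With these barcodes and all others with a Zbtb16 UMI left out, 21 in WT and 37 in Cgas KO, 3 of the 4 ratios changed direction, a setting chosen after seeing the data. S100a6 was then at 0.801 (0.514 to 1.24) of the WT level in the Foxp3- Cd4 lineage and 0.680 (0.141 to 2.87) in the Cd8 lineage. S100a4 was at 0.151 (0.0522 to 0.359) in the Foxp3- Cd4 lineage, on 39 and 6 UMIs, and at 0.340 (0.00648 to 4.23) in the Cd8 lineage, on 3 UMIs and 1 UMI. Without only the top barcode of each library, S100a4 was at 0.468 (0.206 to 0.9996) in the Foxp3- Cd4 lineage and at 1.70 (0.330 to 10.9) in the Cd8 lineage. None of the left-out barcodes was Foxp3+, so the Foxp3+ values stayed as they were, and Cd44 in the Foxp3- Cd4 lineage was at 0.736 (0.672 to 0.805).

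**Figure D5:**
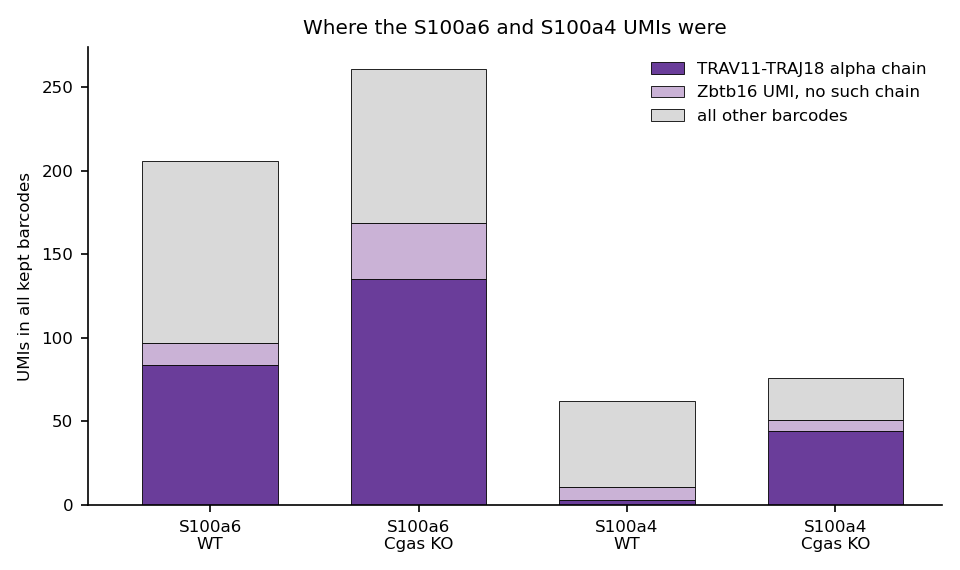
UMIs of S100a6 and S100a4 over all kept barcodes of each library (linear axis, stacked from 0), divided into barcodes with a TRAV11-TRAJ18 alpha chain, other barcodes with a Zbtb16 UMI, and all others. The few TRAV11-TRAJ18 barcodes hold 84 of 206 and 135 of 261 S100a6 UMIs, and 3 of 62 and 44 of 76 S100a4 UMIs.

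Genes with a profile most like the mean standardised profile of the 10 were ranked by Pearson correlation over 12 levels, 6 cell states in 2 libraries, among 6831 genes with at least 100 UMIs in Foxp3+ barcodes. The highest were Slc35d1 (0.85), Trib2 (0.85), Acbd5, Pdcd4, Hk1, Exoc6b, Ppdpf, Adamts10, Thap3 and Elovl5 (0.82). None of the 10 stayed among the 10 highest over the 10 levels left without the Cd24a+ Ccr7- states of 2 and 5 barcodes. Slc35d1 then had a correlation of 0.65 and rank 41. The levels share their libraries and differ in depth, so the ranking is a description of these states only.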

How the data were processed

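The authors deposited unfiltered matrices of UMI counts per gene and barcode for 2 expression libraries, and tables of assembled TCR contigs for 2 TCR libraries. Per the file headers, version 8.0.1 of Cell Ranger made the counts, whereas the submitters' processing notes list mm10, Seurat 5.1.0 and Cell Ranger 7.0. The sources used here do not state the annotation or counting settings. Per the labels' protocols, expression libraries used a 3' kit. The gene set and all lists were chosen with earlier results of these data known, and so support nothing by their choice.

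UMIs were summed per library and cell state and divided by the state's total (CPM, which for 3' UMIs is not divided by gene length). Intervals are exact at 95%: Poisson for CPM, Clopper-Pearson for shares, conditional binomial for ratios. They cover counting error only, and UMIs of 1 barcode are not independent. A gene counted as measured with at least 20 UMIs over both groups; 1.5-fold was the mark for higher and lower; 1 CPM was added before log2. Shares at equal depth used barcodes thinned to 2000 UMIs. All 10 genes are named, and of other lists at most 6 genes each with at least 100 UMIs, by size of ratio. TMM factors (edgeR 4.0.16) and size factors (DESeq2 1.42.0) served as alternative scalings only, with no count test, since there was 1 library per genotype. The summing and interval scripts (scipy 1.17.1 and numpy 2.4.6 under Python 3.11.15, with pandas 2.3.3 and R 4.3.3) were tested on simulated data. Of TCR barcodes, 97.1% and 94.2% matched a kept barcode.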

Additional observations from a re-analysis of the deposited data

Results flagged for a closer look

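S100a4 moved in opposite directions between genotypes in the Foxp3- lineages: Cgas KO stood at 0.373 of WT in the Cd4 lineage (16 against 42 UMIs) and at 6.71 times WT in the Cd8 lineage (33 against 5 UMIs), with intervals that excluded 1 on opposite sides. The difference between the lineages was not tested. A single barcode held 28 of the 33 Cgas KO UMIs of the Cd8 lineage, and another held 19 of the 42 WT UMIs of the Cd4 lineage.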

How the results depend on the processing

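There were 14 planned settings for barcodes, Foxp3 calls, scaling and gene filters, and 2 chosen after seeing the data (leaving out TRAV11-TRAJ18 or Zbtb16 barcodes, and leaving out the top barcode for single genes). Of 163 values of the median, count and share results under a setting, 149 stayed within the main interval (for the count of genes, within 1.5 times), 13 moved and 1 reversed. For shares this was the counting interval. For medians it ran between the medians of the single genes' lower and upper limits. That span is about as wide as the interval of a typical single gene and is not an interval of the median itself. Of 466 single-gene ratios, 408 stayed, 50 moved and 8 reversed, and the cause was not tested. A value was called reversed only where the main interval excluded no change, so the reversed values are not all the changes of direction. Among the others, Ccr6 (2.54) and Ahnak (1.85) in Foxp3+ Cgas KO over WT changed direction without other-marker barcodes, from main intervals that included 1. That setting dropped any barcode with even 1 UMI of a listed gene. It left 164 of 514 WT and 138 of 378 Cgas KO Foxp3+ barcodes. The median of Cgas KO over WT in the Foxp3- Cd4 lineage, -0.25, became 0.026 with only the 6 genes with at least 100 UMIs. The Foxp3+ over Foxp3- Cd4 lineage median became -0.37 in WT (from 0.16) without barcodes with another cell type's marker and -0.59 in Cgas KO (from 0.25) with thinned states. The Cd24a- over Cd24a+ median in WT, 0.00, became 2.45 with thinned states (2 genes), 0.80 with every detected gene and -0.38 with at least 100 UMIs. The Ccr7- over Ccr7+ median in WT, 0.04, became 0.88 without other-marker barcodes. The count of genes at least 1.5-fold lower in Cgas KO Foxp3+ barcodes, 1, became 4 with at least 2 Foxp3 UMIs, 3 with every detected gene, 2 without each gene's top barcode, and 0 with per-barcode means or without other-marker barcodes. At least 3 genes were found in 4.55% of WT barcodes with at least 2 Foxp3 UMIs and in 0.503% of Cgas KO barcodes with thinned states. Single genes that reversed between genotypes were Ccr6 in the Foxp3- Cd4 lineage (1.75 without other-marker barcodes), S100a6 there (0.212 thinned, 0.338 without other-marker barcodes, 0.801 without TRAV11-TRAJ18 or Zbtb16 barcodes) and in the Cd8 lineage (0.680), and S100a4 in the Cd8 lineage (0.946 thinned, 0.340). S100a6 in Foxp3+ over Foxp3- Cd4 lineage barcodes of WT became 0.896. Ccr6 stayed 4.74-fold (Cgas KO, thinned states) to 22.9-fold and Ahnak 2.38-fold to 5.31-fold higher in Foxp3+ barcodes over every setting and both libraries, and Cd44 in Foxp3+ Cgas KO over WT ranged from 0.5001 to 0.923.

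No paired analysis was possible because each genotype has 1 library and no replicate could be left out. A minimum of 1000 UMIs gives no share at 2000 UMIs. Foxp3+ classes of 378 to 514 barcodes limit Cxcr3, S100a4, S100a6 and Klrg1, and splits by Cd24a and Ccr7 left under 70 barcodes in the small states.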
